A study of Mus musculus with 6 samples.

Results

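Mt1 and Mt2 encode metallothioneins, small cysteine-rich proteins that bind zinc and copper. They were taken from the gene table by symbol, and both members were found among the 12149 listed genes. The levels come from RNA sequencing of 6 single mouse blastocysts of C57BL/6 background at embryonic day 3.5. All 6 zygotes had received small RNAs purified from sperm, injected at 2 ng/µl, and were collected about 96 h later. In the control group (Ctl, 3 embryos) the small RNAs came from normal males, and in the other group (Dep, 3 embryos) from males with a depressive state induced by stress. All embryos were injected, so no group shows an embryo without foreign sperm RNA. Shared parents, injection days and donor males of the embryos are not stated in the labels, so p-values measure only the spread between these embryos. Each value is a normalized count, which the values show to be reads of the gene over a size factor, 1 for each library. Values listed in threes follow embryos 1, 2 and 3 of a group, and a value with ± is the mean and SD of 3 embryos unless SE is named.

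Metallothioneins hold metal ions in clusters formed by their cysteines, and so buffer free zinc, store it and limit the toxicity of cadmium and excess copper. Zinc is sensed by the transcription factor MTF1, which enters the nucleus and binds short metal response elements in front of metallothionein genes. Glucocorticoids and oxidative stress also induce these genes in many tissues, and preimplantation embryos are known to transcribe them.

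Mt1 (ENSMUSG00000031765) lies on the plus strand of chromosome 8 at chr8:94179082-94180327 and Mt2 (ENSMUSG00000031762) at chr8:94172664-94173568 (GRCm38, GENCODE M21), with 5513 bases between them. Both are annotated as protein-coding, with 3 exons in the first-numbered transcript. Their coding sequences are shown because they bear on how reads were divided between the genes. Capitals mark the in-frame codons TGC and TGT, which code for cysteine.
Mt1: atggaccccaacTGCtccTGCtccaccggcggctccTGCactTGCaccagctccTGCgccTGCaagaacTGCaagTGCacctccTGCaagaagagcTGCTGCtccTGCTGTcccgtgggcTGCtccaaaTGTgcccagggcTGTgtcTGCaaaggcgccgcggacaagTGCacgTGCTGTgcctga
Mt2: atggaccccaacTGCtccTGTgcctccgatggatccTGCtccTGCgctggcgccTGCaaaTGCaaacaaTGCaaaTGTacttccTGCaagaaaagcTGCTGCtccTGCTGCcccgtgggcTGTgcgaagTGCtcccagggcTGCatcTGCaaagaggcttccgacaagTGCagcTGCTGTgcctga

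Each reading frame holds 61 codons before the stop, and 20 of them (32.8%) are TGC or TGT. All 20 stand at the same codon positions in both genes. Of the 186 coding bases, 148 (79.6%) are identical, and the longest identical run is 20 bases. No window of 50 bases of the Mt1 transcript occurs in a transcript of another gene. For Mt2, 210 of 462 such windows occur in another gene, and in each case it is Gm45774, an unlisted gene annotated on the opposite strand across Mt2. The library kit does not mark strand, so reads from the sequence that Mt2 and Gm45774 share cannot be told apart. No source used here says how the counting treated such reads.

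The metal response element has the core TGCACNC or TGCGCNC, and both strands were searched from the start of the RefSeq promoter window to the coding start. The 472 bases searched at Mt1 held 5 matches, between 118 and 239 bases before the coding start. The 480 bases searched at Mt2 held 7, between 113 and 447 bases before it. The matches nearest each coding start are shown with 8 bases on either side, with the core in capitals (GRCm38.p6, plus strand).
Mt1, chr8:94179091-94179097: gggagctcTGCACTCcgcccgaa
Mt1, chr8:94179109-94179115: ccgaaaagTGCGCTCggctctgc
Mt1, chr8:94179173-94179179: cgcctgctGGGTGCAaacccttt
Mt1, chr8:94179187-94179193: aaacccttTGCGCCCggactcgt
Mt2, chr8:94172676-94172682: aaaagggcGTGTGCAggcggcgg
Mt2, chr8:94172695-94172701: gcgggggcGCGTGCAtggtgcct
Mt2, chr8:94172729-94172735: ggagctttTGCGCTCgacccaat

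The annotation places these 7 matches in the 5′ untranslated part of the first exon of the first-numbered transcripts, while other annotated Mt1 transcripts start downstream of them. Of 32851 RefSeq promoter windows of 300 bases, 25.7% hold at least 1 match. The window of Mt1 holds 3, and 1.97% of all windows hold at least as many. That of Mt2 holds 4, and 0.517% hold at least as many. In the first 200 transcript bases Mt1 holds 4 matches and Mt2 holds 3. Of 21801 protein-coding genes, 0.115% hold at least 4 there and 0.743% at least 3. A match is a run of letters and was not tested as a binding site in these embryos.

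Depth ranged from 16543356 to 21548220 reads in listed genes per embryo. Between 5 and 106 listed genes were at 0 reads in 5 embryos, against 691 in Dep 1. All 9 trophectoderm, 8 epiblast and 8 primitive endoderm markers looked for were listed, as in a blastocyst, and 0 of 9 markers of the cumulus and granulosa cells that surround the oocyte. No listed gene has a mean below 14.2 normalized counts, so a gene that is not listed may still have had a few reads. Fewer cells of a type and less RNA per cell cannot be told apart in whole embryos.

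Mt1 and Mt2 were among the most abundant transcripts of every embryo, and their levels differed about 4-fold between embryos. The normalized counts of Mt1 were 52726, 22080 and 38089 across the Ctl embryos. Across the Dep embryos they were 87193, 20277 and 20538. The highest and the 2 lowest embryos were thus all in the Dep group, and the Ctl embryos lay between them. Those of Mt2 were 20578, 8145 and 13797 across Ctl, against 29635, 7279 and 7253 across Dep. Its embryos stood in the same order, apart from Dep 2 and Dep 3, whose values were nearly equal in both genes. Dep 1 stayed highest under each of 4 other scalings, while Dep 3 passed Ctl 2 for Mt1 under 3 of them, such as equal library totals (23095 against 22606).

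**Figure D1:**
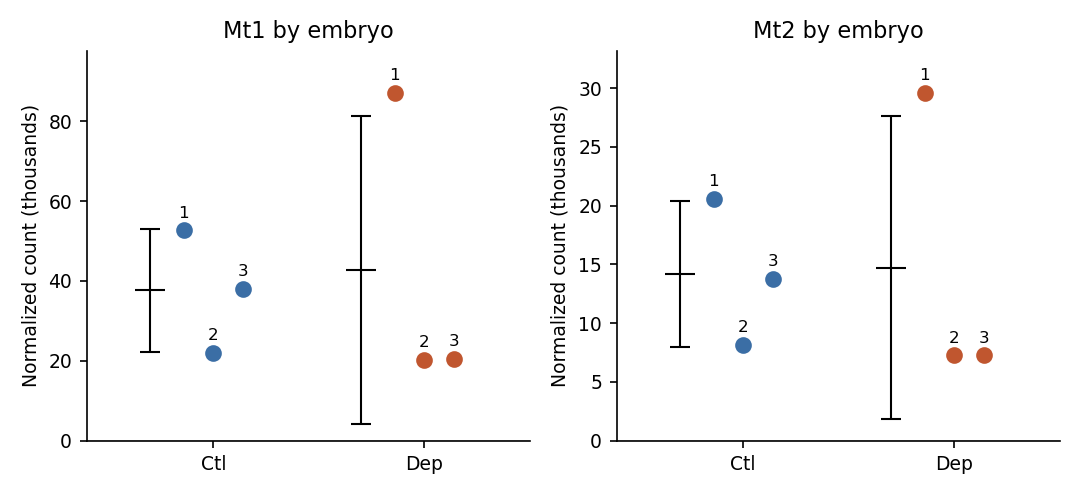
Normalized counts, divided by 1000 on the axis, of Mt1 (left) and Mt2 (right) in each embryo, with embryo numbers beside the points and the group mean ± SD (n = 3) as the bar at the left of each group. In both genes Dep 1 is the highest embryo, at 87193 and 29635, and Dep 2 and Dep 3 are the lowest.

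Per base of annotated exon, Mt1 ranked from 8 to 37 and Mt2 from 13 to 52 among 11829 genes with a known length, by embryo. In TPM, a level corrected for transcript length and library total, Mt1 was at 8172 in Dep 1 and at 2415 in Dep 2, and Mt2 at 5886 and 1837. Both genes together took between 0.152% of an embryo's reads in Dep 2 and 0.559% in Dep 1. Mt4, a relative known from stratified epithelia and lying on the same chromosome, had 12.5 to 60.9 normalized counts. Mt3, known from the brain, was not listed.

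Within groups, both genes varied more than most abundant genes. The SD of the log2 level within groups was 0.97 for Mt1 and 0.95 for Mt2. It was larger in Dep, where Dep 1 stood far above the other embryos. For Mt1 it was 0.63 in Ctl and 1.21 in Dep, and for Mt2 0.67 and 1.17. The ranking below was not repeated without Dep 1. Among 677 genes with a mean of at least 5000 normalized counts, 99.1% varied less than Mt1 and 98.8% less than Mt2, and the median was 0.39. The highest Dep embryo had 4.30 times the Mt1 level of the lowest, and the highest Ctl embryo 2.39 times.

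Dep was compared with Ctl to ask whether sperm small RNAs from stressed males alter metallothionein expression in the embryo. Mt1 averaged 37632 ± 15328 normalized counts in the Ctl embryos against 42669 ± 38559 in the Dep embryos, and Mt2 14173 ± 6225 against 14722 ± 12915. The arithmetic mean was thus 1.13 times higher in Dep for Mt1 and 1.04 times for Mt2, while the mean of the log2 levels was lower. The log2 fold was -0.10 ± 0.56 (SE) for Mt1 and -0.19 ± 0.54 for Mt2 (limma, adjusted p = 0.9997 for both). The 95% intervals ran from 0.394-fold to 2.22-fold for Mt1 and from 0.382-fold to 2.01-fold for Mt2, so a change of about 2-fold in either direction was not detectable at this spread. The sum of both had a log2 level of 15.57 ± 0.64 in the Ctl embryos against 15.45 ± 1.20 in the Dep embryos. An exact permutation test, two-sided, gave p = 0.8, and adjusted p = 0.8 over 2 tests. The smallest p that 3 against 3 embryos can give is 0.1. In the whole table of 12149 genes, limma called 0 (0%) at an adjusted p of 0.05, edgeR 0 and DESeq2 1. An unadjusted limma p under 0.05 was found for 225 genes (1.85%), Mt1 and Mt2 not among them. The authors' deposited table gives log2 folds of 0.18 for Mt1 and 0.055 for Mt2, with adjusted p = 0.9999 for both.

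The direction rested on single embryos. Without Dep 1, the log2 fold was -0.79 for Mt1 and -0.86 for Mt2, with unadjusted p = 0.0480 and 0.0300 (limma, adjusted p = 0.987 for both). Both remaining Dep embryos were then below the 3 Ctl embryos in both genes, an order found in 9.90% of all genes. In that comparison 3.90% of genes had an unadjusted p under 0.05, and 1.92% had one with a lower level in Dep. This order rested on the scaling: Dep 3 was above Ctl 2 for Mt1 under 3 of 4 other scalings, and for Mt2 under quantile normalization (8886 against 8221). Without Ctl 1, Dep 2 or Dep 3 the log2 folds were positive, at 0.19, 0.26 and 0.25 for Mt1 and 0.13, 0.15 and 0.15 for Mt2. Without Ctl 2 they were -0.44 and -0.54, and without Ctl 3 the fold of Mt1 was -0.043.

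Mt1 and Mt2 kept a nearly constant ratio while their levels moved. Across the Ctl embryos there were 2.56, 2.71 and 2.76 Mt1 reads per Mt2 read, against 2.94, 2.79 and 2.83 across the Dep embryos. The highest ratio was 1.15 times the lowest, against 4.30 times for the level of Mt1. Divided by the length of the first-numbered transcripts (549 and 511 bases), Mt1 was 2.57 times as abundant as Mt2 on average. Divided by the full annotated exon lengths (1246 and 588 bases) it was 1.31 times as abundant, because some annotated Mt1 transcripts retain introns. The share of Mt1 thus depends on the transcript model, and the comparison between embryos does not.

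**Figure D2:**
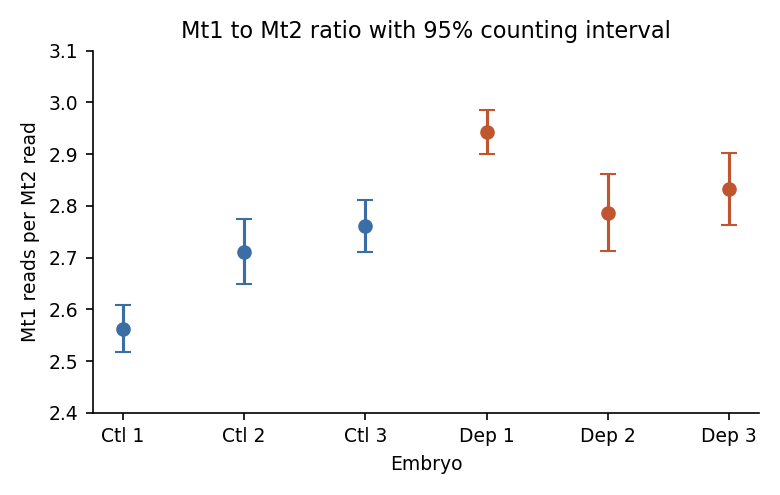
Mt1 reads per Mt2 read in each embryo. Bars are exact (Clopper-Pearson) 95% intervals from the read counts and cover counting error only, and the vertical axis starts at 2.4. The 3 Dep embryos, at 2.79 to 2.94, lie above the 3 Ctl embryos, at 2.56 to 2.76.

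The ratio was slightly higher in Dep, and the groups did not overlap. It averaged 2.68 ± 0.103 in the Ctl embryos against 2.85 ± 0.0804 in the Dep embryos, a difference of 0.092 on the log2 scale or 6.57%. The exact permutation test (two-sided) gave p = 0.1, the smallest that 3 against 3 unpaired embryos allow, and adjusted p = 0.2 over 2 tests. With same-numbered embryos as pairs, exact sign flips gave p = 0.25, the smallest that 3 pairs allow. As the groups did not overlap, any pairing gives 3 of 3 pairs higher in Dep and this p. The paired result thus adds nothing to the unpaired one. Among 9265 pairs of neighbouring listed genes, each gene with a mean of at least 100 normalized counts and reads in every embryo, 5.88% had ratios that did not overlap between the groups. Counting intervals were also taken for the Mt1 share of both genes' reads. Those of Ctl 2 and Ctl 3 ran from 72.6% to 73.5% and from 73.0% to 73.8%. Both overlapped those of Dep 2 (73.1% to 74.1%) and Dep 3 (73.4% to 74.4%). Those of Ctl 1 (71.6% to 72.3%) and Dep 1 (74.4% to 74.9%) each stood apart from the nearest embryo of the other group. The counts behind them were 20419 to 71819 reads of Mt1 and 7330 to 24410 of Mt2, and reads without molecular identifiers are not independent molecules. Without Ctl 1 the log2 difference in ratio was 0.060, a reduction of more than 1.5 times.

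The log2 levels of both genes correlated over the 6 embryos with Pearson's r = 0.997 (exact permutation p = 0.00278) and Spearman's rho = 0.943 (exact permutation p = 0.0167), 2 measures of 1 relation. Without Dep 1 and Ctl 1, the embryos farthest from the median, r was 0.998 over 4 embryos. Deviations from the group means gave r = 0.999. Among 9473 genes with a mean of at least 100 normalized counts and a symbol, Mt2 was in place 3 by its r with Mt1, and Mt1 in place 2 by its r with Mt2. The ratio varied little beside that of other neighbouring genes, a comparison chosen after its value was seen. Its SD over the 6 embryos was 0.067 on the log2 scale, 0 of 9265 neighbouring pairs had a smaller one, and the median pair had 0.66. Of the 1619 pairs in which both genes had a mean of at least 1000 normalized counts, where counting error is small, 0 had a smaller SD and the median was 0.48.

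**Figure D3:**
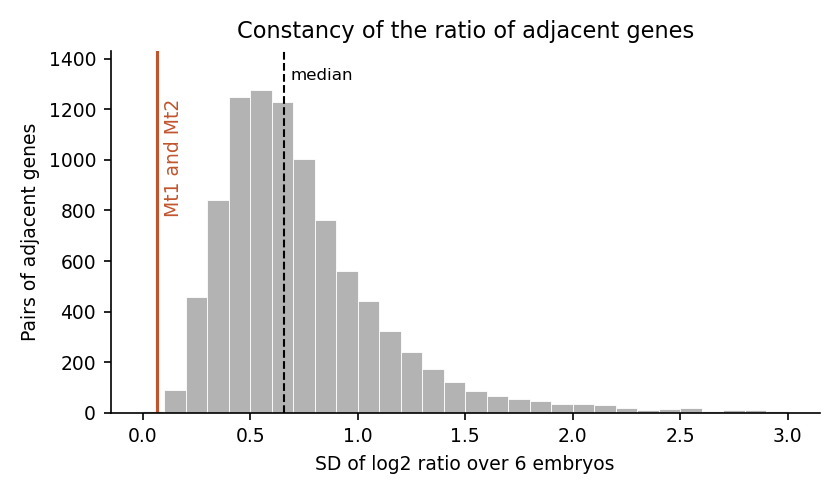
Number of pairs of neighbouring listed genes by the SD, over 6 embryos, of the log2 ratio of their normalized counts, in steps of 0.1. The red line marks Mt1 and Mt2 at 0.067 and the dashed line the median pair at 0.66, and 26 pairs at 3 or more are not drawn.

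The other genes at the locus followed the metallothioneins less closely. Of the 9 listed genes that start within 250 kb, the 7 besides Mt1 and Mt2 had Pearson's r between -0.62 and 0.79 with the mean log2 level of both, over 6 embryos. Mt4 had the highest, 0.79, at 15 to 69 reads per embryo. Nudt21, a subunit of the mRNA cleavage factor, had 0.68, and Nup93, of the nuclear pore, -0.62. None passed the test between groups (limma, adjusted p = 0.9997 for each), and all groups overlapped, against 6.90% of all genes whose groups did not.

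Several genes elsewhere in the genome followed the metallothioneins closely across the embryos. By Pearson's r with their mean log2 level over 6 embryos, the top 5 of 9472 were Cnih4 (0.999), Ufc1 (0.997), Rpl37a (0.996), Selenoh (0.995) and Ubl5 (0.995). Selenoh, a nuclear selenoprotein gene known to respond to metals through MTF1, stood at 4329, 2277 and 3288 normalized counts across Ctl, against 5926, 2306 and 2351 across Dep. Rpl37a encodes a ribosomal protein, Ufc1 and Ubl5 belong to ubiquitin-like systems, and Cnih4 to protein export from the endoplasmic reticulum. Their highest embryo had between 1.86 and 2.60 times the level of the lowest, less than the 4-fold of Mt1 and Mt2. The most opposite genes were Rnf126 (-0.993), Pgs1 (-0.993) and Tacc1 (-0.991). In all, 380 genes (4.01%) had r over 0.9 and 214 (2.26%) under -0.9. With 6 embryos, 1 of them far above the rest, such values are a description of shared embryo order.

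Genes that followed the metallothioneins closely had a shorter annotated exon length. Its median was 2440 bases for genes with r over 0.9 (Mt1 and Mt2 counted), against 4450 for all genes compared. For genes with r under -0.9 it was 4314.5 bases, near that of all genes. Genes with an exon length under 1000 bases (291 genes) deviated from their mean log2 level by a median of 0.29, -0.31 and 0.0035 across Ctl, and of 0.52, -0.17 and -0.28 across Dep. Mt1 deviated by 0.62, -0.63 and 0.15, and by 1.35, -0.76 and -0.74. Of these short genes 21.0% had r over 0.9 with the metallothioneins, and of the 1754 genes in the longest of 5 length classes 1.43%. After the short-gene median of each embryo was subtracted, Mt1 still spanned 1.42 on the log2 scale in place of 2.10, and Mt2 1.34 in place of 2.03. The group difference was then -0.13 for Mt1 and -0.22 for Mt2 (limma, adjusted p = 0.9999 for both). The part of length in the embryo differences beyond that was not tested.

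**Figure D4:**
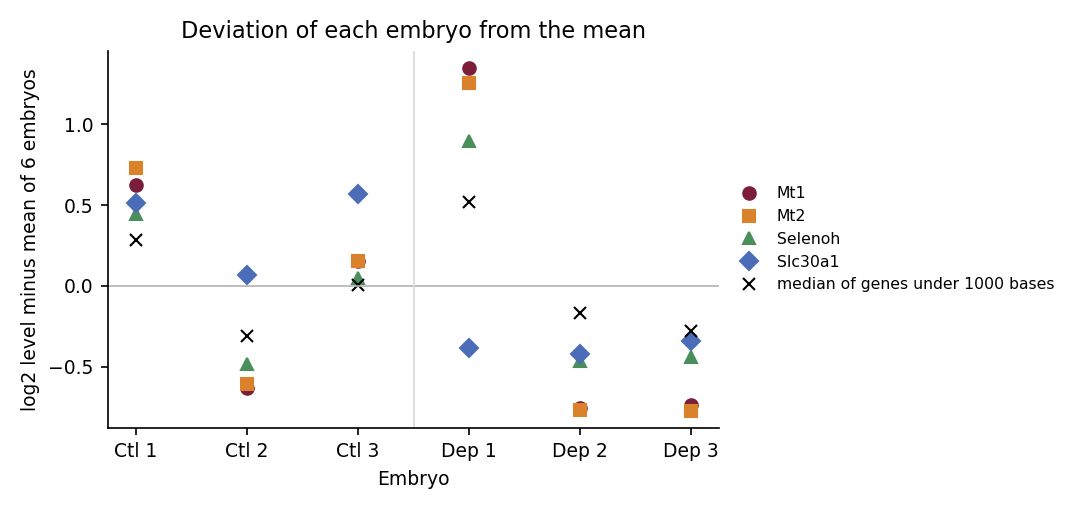
Log2 level in each embryo minus the mean of the 6 embryos, for Mt1, Mt2, Selenoh, the zinc exporter gene Slc30a1 and the median of 291 genes with an exon length under 1000 bases. Mt1, Mt2, Selenoh and the short genes are highest in Dep 1, whereas Slc30a1 is above its mean in the 3 Ctl embryos and below it in the 3 Dep embryos.

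Lineage markers also differed between the embryos. The summed level of the 9 trophectoderm markers was 104974 normalized counts in Dep 1, the embryo with the highest metallothionein levels, against 49175 to 73531 across Ctl and at most 45532 in the other Dep embryos. Most of that sum came from the keratin genes Krt8 (34040) and Krt18 (47707). The trophectoderm factor genes Cdx2 (3795), Gata3 (10439), Gata2 (1567) and Eomes (2864) were also highest in Dep 1. Tfap2c was lowest in Dep 1 (2204) among the 6 embryos, and Tead4 and Elf5 were neither highest nor lowest there. The epiblast sum was lowest in Dep 1, at 5908, against 7099 to 10431 in Ctl and up to 12896 in Dep, and Fgf4 was at 0 there. Nanog, Sox2, Klf2, Esrrb and Tdgf1 were also lowest in Dep 1. Prdm14 was highest in Dep 1 (198), and Pou5f1 (2767) was neither highest nor lowest there. The primitive endoderm sum was highest in Dep 1, at 25758, of which the adaptor gene Dab2 made up 22085, against 20602 to 24205 across Ctl. The primitive endoderm factor genes Gata4, Sox17 and Sox7 were at 0 in Dep 1. In Ctl 3 they were nearly as low, with Gata4 at 0, Sox17 at 0.88 and Sox7 at 9.71 normalized counts. The part of embryo composition in the metallothionein levels was not tested.

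Mtf1, the zinc-sensing activator, stood at 1371, 1251 and 1031 normalized counts across Ctl, against 2197, 939 and 1165 across Dep. Like the metallothioneins it was highest in Dep 1, and its groups overlapped (log2 fold 0.15 ± 0.35 (SE), limma adjusted p = 0.9997). Of 7 listed genes in the list of MTF1 and its known targets, 2 had a positive and 5 a negative log2 fold, and 0 passed the test. Over all 12149 genes 51.8% had a negative fold, without regard to any test. The list's median was -0.18 against -0.017 over all genes, and with 1 embryo left out it ranged from -0.44 (without Dep 1) to -0.053 (without Dep 2). Slc30a1, which exports zinc from the cell and is a known MTF1 target, stood at 1402, 1029 and 1455 normalized counts across Ctl, against 752, 735 and 777 across Dep. All Dep embryos were below all Ctl embryos, with a log2 fold of -0.76 ± 0.28 (SE; limma, unadjusted p = 0.0222, adjusted p = 0.9997). It did not follow the embryo order of Mt1 and Mt2 (r = 0.24 over 6 embryos). Ndrg1, a stress-responsive gene, had 2081 ± 1074 against 936 ± 393 normalized counts (limma, unadjusted p = 0.0320) with overlapping groups. Slc30a1 was the 1 gene of these 7 whose groups did not overlap, against 6.90% of all genes. An unadjusted limma p under 0.05 was found for 2 of the 7, Slc30a1 and Ndrg1, against 1.85% of all genes. Gclc, of glutathione synthesis, had 374 ± 153 against 289 ± 99.3, and the selenoprotein gene Selenow 7115 ± 948 against 6545 ± 2360.

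**Figure D5:**
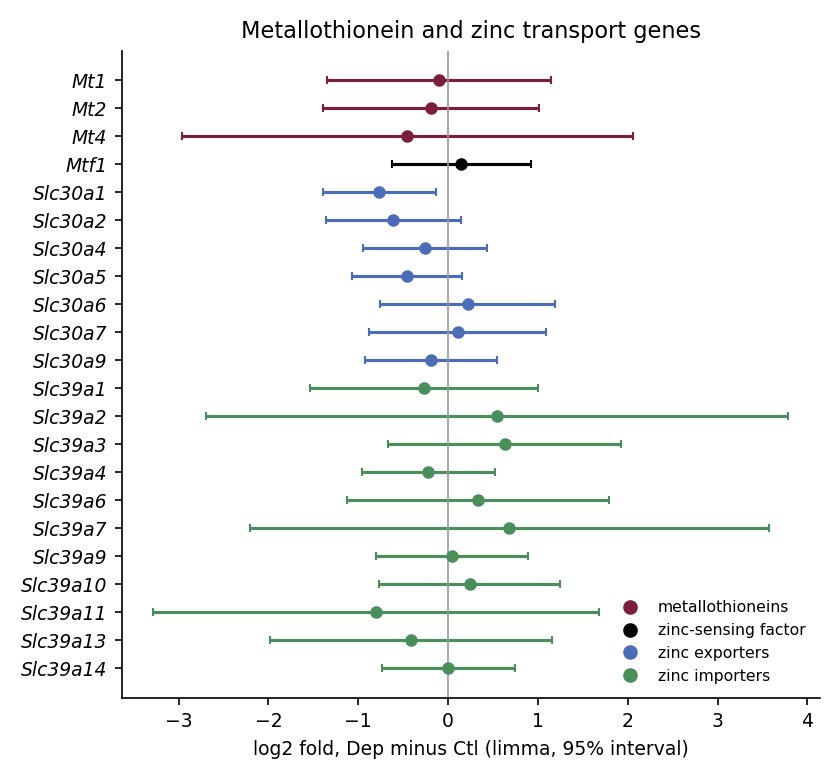
Log2 fold, Dep minus Ctl, of the listed metallothioneins, Mtf1, zinc exporters (Slc30a) and zinc importers (Slc39a), with limma 95% intervals, unadjusted. The interval of Slc30a1 lies below 0 (log2 fold -0.76), those of Mt1 and Mt2 span more than 1 on either side of 0, and no gene passed the adjusted test.

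Zinc exporters had negative log2 folds in 5 of 7 listed genes (median -0.25), against 51.8% of all genes. Groups did not overlap for 3 of the 7, against 6.90% of all genes. With 1 embryo left out the median ranged from -0.44 (without Dep 1) to -0.19 (without Ctl 1). Without Ctl 1, 4 of the 7 were negative, against 53.0% of all genes in that comparison. Besides Slc30a1 the genes without overlap were Slc30a2 and Slc30a5. Slc30a2 had a mean of 526 ± 17.4 normalized counts against 347 ± 50.4 (Ctl first). Slc30a5, which loads zinc into the secretory pathway, had a log2 fold of -0.46 ± 0.28 (SE). Slc30a4 had 1398 ± 174 against 1206 ± 359. Zinc importers had positive folds in 7 of 11 listed genes and negative ones in 4 (median 0.043), and all groups overlapped. The median was -0.22 without Dep 3. Slc39a4, the importer known from zinc uptake in the gut, had 2731 ± 1083 against 2252 ± 470, and Slc39a14 1077 ± 166 against 1121 ± 417. Slc39a3 had 148 ± 97.2 against 204 ± 48.5. Slc39a11 had 195 ± 108 against 206 ± 173, but its log2 fold was negative (-0.80), with Dep 1 at 10.9. By limma, adjusted p = 0.9997 for each of these transporters.

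Of 11 listed copper genes, 8 had positive and 3 negative log2 folds (median 0.086), against 51.8% negative over all genes. Without Dep 1, 5 were positive (median -0.070). The groups did not overlap for 1 of the 11, against 6.90% of all genes, and that was Slc31a1, the main copper importer, at 1288 ± 144 normalized counts against 1658 ± 177 (Ctl first). Atox1, a copper chaperone, had 3282 ± 1010 against 3246 ± 1233, and Atp7a, a copper-exporting pump, a log2 fold of -1.38 (limma, unadjusted p = 0.245). Slc31a2 had a log2 fold of 1.17 ± 0.72 (SE) and Commd1 of 0.17 ± 0.38, with overlapping groups in these genes. Of 12 listed iron genes, 11 had negative folds (median -0.13) against 51.8% of all genes, and 7 without Dep 1 (median -0.12). With 1 embryo left out the median ranged from -0.27 (without Dep 3) to -0.12. The ferritin genes were among the 11, with Ftl1 at 268600 ± 80294 against 158105 ± 16809, and Fth1 at 77185 ± 21508 against 50865 ± 14202 with overlap. Ftl1 was the 1 gene of these 12 whose groups did not overlap, against 6.90% of all genes. Ireb2, which controls ferritin translation, had a log2 fold of -0.21 ± 0.26 (SE). None of the copper and iron genes passed the test (limma, adjusted p = 0.9997 for each).

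Genes of the other pathways known to induce metallothioneins did not pass the test either (limma, adjusted p = 0.9997 for each). Of 14 listed glucocorticoid genes, 10 had negative folds (median -0.27), against 51.8% of all genes. The count was 8 without Dep 1 (median -0.047) or without Ctl 2 (median -0.080). Without Dep 3 the median was -0.52. The groups did not overlap for 1 of the 14, against 6.90% of all genes, and that was Klf9, a glucocorticoid-induced factor, at 1467 ± 150 normalized counts against 1064 ± 154 (Ctl first). Dusp1, a phosphatase gene, had 542 ± 157 against 367 ± 82.8, and Sgk1, a kinase gene, 4892 ± 755 against 6788 ± 3782. Fkbp4, a receptor cochaperone, had a log2 fold of 0.26 ± 0.26 (SE), and Tsc22d3, at 24.4 ± 27.8 in Dep, of -2.41 ± 1.77. Of 16 listed targets of the antioxidant factor NRF2, 14 had negative folds (median -0.49, both ferritins included), against 51.8% of all genes. The count rested largely on Dep 1, without which 10 of 16 were negative (median -0.15), against 48.1% of all genes in that comparison. Srxn1, a sulfiredoxin gene, stood at 94.7 normalized counts in Dep 1 against 2629 and 1241 in the other Dep embryos. Txnrd1, a thioredoxin reductase gene, stood at 764 against 3040 and 3749. Members of this list differed, as Txn1 (9564) and Taldo1 (7050) were highest in Dep 1 among all embryos. Gclm, a subunit of the first enzyme of glutathione synthesis, had 1666 ± 199 against 1136 ± 638 with overlapping groups. Of 17 glutathione and superoxide defence genes, 15 had negative folds (median -0.19), against 51.8% of all genes. The count was 11 without Dep 3 (median -0.073). The median was -0.58 without Dep 2, -0.35 without Dep 1 and -0.32 without Ctl 3. The groups did not overlap for 2 of the 17, against 6.90% of all genes. These were Gsto1, a glutathione transferase gene at 70286 ± 2762 against 43904 ± 9914, and Sod1. Gpx3 had 2619 ± 1524 against 1203 ± 733 with overlap (limma, unadjusted p = 0.0426), and Prdx1, of peroxide removal, 26923 ± 9885 against 25052 ± 12913. The lists share members, and a list's median was not tested.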

How the data were processed

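RNA of 6 single blastocysts was sequenced after SMART-Seq v4 cDNA synthesis, per the labels' protocols. HISAT2, Cufflinks 2.2.1 and mm10 appear in the submitters' processing notes with no role, and no source used here gives the counting program. Each gene has 1 deposited signal value (normalized count) in every library. The values show a read count over 1 size factor: divided by the worth of 1 read, 100% of them came out whole (tolerance 0.01), although the step of Dep 2 is 0.993, near 1, and was read by its likeness to the others. Per the file headers, it also gives the authors' log2 fold changes, test statistic (score) and p-values.

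GENCODE M21 (GRCm38) gave names and lengths for 11829 of 12149 identifiers; promoters came from RefSeq (GRCm38.p6). TPM was computed from recovered reads and annotated exon length. The main test was limma 3.58.1 with a trend on log2(normalized count + 1) over all genes, Benjamini-Hochberg adjusted, in R 4.3.3, which understates folds of low genes. Alternatives included edgeR 4.0.16 and DESeq2 1.42.0 on the recovered reads. Exact permutation tests, two-sided, compared sum and ratio. The fit was tested on simulated data. Members, lists and rules were chosen with earlier results of these data known. Named genes were Mt1, Mt2, Mt4 and Mtf1, and per list up to 3 of smallest p and 2 of highest level. The 5 genes most and 3 least like the metallothioneins, and neighbours within 250 kb, were also named. Sod1, Srxn1, Txnrd1, Txn1 and Taldo1 were chosen after values were seen, as were the short-gene and neighbouring-pair comparisons.

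Same-numbered embryos of the groups deviated together (r = 0.133, 0.151 and 0.129 across genes, each over 0.1), so the numbers were taken as pairs, which the labels do not state. Deviations from a group mean cancel within the group, so some pairing had to come out highest, and these r do not establish pairs. The main tests do not use the pairs, and the paired fits are alternatives. Libraries of a group differed beyond sampling noise (chi-square), so none was the same library read again. That test cannot tell repeat libraries of an embryo from separate embryos.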

Additional observations from a re-analysis of the deposited data

How the results depend on the processing

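The lack of a group call for Mt1 and Mt2 held under every alternative run, and the sign of their small difference did not. edgeR and DESeq2, which compare means of counts and not of logs, gave log2 folds of 0.18 and 0.18 for Mt1 and 0.053 and 0.055 for Mt2, the reverse of limma. Leaving out 1 embryo moved the log2 fold from -0.79 to 0.26 for Mt1, from -0.86 to 0.15 for Mt2 and from -0.81 to 0.23 for their sum. Without Ctl 1, Dep 2 and Dep 3 the sum was higher in Dep, by 0.18, 0.23 and 0.22. Library weights gave -0.47 and -0.54 for Mt1 and Mt2. With the replicate number as a block the folds stayed -0.10 and -0.19 (limma, adjusted p = 0.982 and 0.963), and the block changed no call, while genes at an unadjusted p under 0.05 went from 225 to 420. Such genes numbered 474, 349 and 576 without Dep 1, 2 and 3, 122 and 137 without Ctl 1 and Ctl 3, 399 with library weights and 93 relative to the median of short genes, a setting chosen after seeing the data. DESeq2 called 1 gene, and the other settings 0. The log2 difference in the Mt1 to Mt2 ratio stayed positive, from 0.060 to 0.11 with 1 embryo left out, where the exact permutation p was 0.1 or 0.2. The correlation of Mt1 and Mt2 without the 2 farthest embryos was 0.998, with exact permutation p = 0.0833, as 4 embryos allow few orders. Paired sign flips, and the gene lists with 1 embryo left out, were also chosen after seeing the data, and the flips gave exact p = 0.25 for the ratio and 0.75 for the sum. The level of each gene rests on at least 7330 reads in each embryo.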
